A study of Myzus persicae with 8 samples.

Results

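The response of the susceptible genotype S of the green peach aphid, Myzus persicae, to a spray of pirimicarb was measured on 3 of the 8 arrays of the series, the biological replicates A, B and C. These are the arrays that title and description assign to S. The other arrays hold genotype SR (2 arrays, 2 replicates) and genotype MR (3 arrays, 2 replicates, since the label of 1 array calls it a technical repeat of replicate A, whereas the study counts 3 biological replicates). Each S array carried RNA of insecticide-treated aphids in one dye and RNA of control aphids of the same genotype in the other, so that every array gives its own ratio of insecticide over water. Treated RNA was in Cy5 in replicates A and C and in Cy3 in replicate B. Since no other S array had the dyes of B, a value particular to B and an effect of dye cannot be told apart.

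S, SR and MR are each 1 clonal lineage collected in the field, so the replicates measure the spread within a clone and not among susceptible aphids. S carries neither the MACE mutation of acetylcholinesterase nor kdr or super-kdr mutations of the sodium channel, SR is heterozygous for kdr, and MR is heterozygous for kdr and MACE. Wingless adults 7 days old, 20 to a pepper leaf disc, were sprayed with 1 ml of pirimicarb at 20 ppm in acetone plus water, and each extract was made from about 40 whole aphids frozen 24 hours later. The insects were those still alive at 24 hours, so the treated RNA is that of survivors. The control is named water in the titles and acetone plus water in the treatment labels, and with the first reading an effect of acetone and an effect of pirimicarb cannot be told apart. The genotype label of S replicate A reads SR, against its own title and description, and values without that replicate are therefore given where they change a result.

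Pirimicarb is a carbamate that blocks acetylcholinesterase, the enzyme that ends signalling at cholinergic synapses. Insects dispose of such compounds in steps: esterases bind or hydrolyse them, cytochrome P450 monooxygenases oxidise them, glutathione S-transferases and UDP-glycosyltransferases conjugate the products, and ABC transporters export them. In this aphid, the carboxylesterases E4 and FE4 are best known for the resistance that follows when their genes are amplified, and P450s of the CYP6 family have been linked to the breakdown of other insecticides.

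The array held 15744 features, of which 14628 probes measured 10489 contigs assembled from expressed sequences, 4139 of them with 2 probes and 6350 with 1. Median signal over background on the S arrays was 42.0 to 77.0 in Cy3 and 39.5 to 53.4 in Cy5, both channels were well above background at 87.1% to 90.4% of probes, and 0 spots were saturated. The 3 arrays did not agree equally. The SD of the log2 ratio over all contigs was 0.69 on replicate A, 0.38 on B and 0.47 on C. Across contigs, which are not independent replicates, the ratios correlated at r = 0.51 between B and C, 0.31 between A and B and 0.29 between A and C. Within an array the 2 probes of a contig followed each other at r = 0.90, 0.89 and 0.94, so the spread between arrays was larger than the spread between probes. The 10 spike-in control RNAs gave Cy5 over Cy3 ratios on replicate A that were lower than on C for every spike-in, by 0.99 to 1.81 on the log2 scale with a median difference of -1.57. On replicate B the median difference from C was -0.06. Ratios shifted to a common spike-in level were fitted as an alternative, given beside the counts of contigs up and down.

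A contig was counted as up or down in S when a probe of it had a mean log2 ratio above 1 in size, that is over 2-fold, and an unadjusted P under 0.05 in limma, the thresholds of the study's methods. By this rule 198 contigs were up (1.89% of those tested) and 17 were down (0.162%), and 92.1% of the 215 lay on the upper side. Of the 198, 89 had 2 probes, and 52 of these passed on both. The mean over a contig's probes was above 1 in 177 of the 198. With the probes of a contig averaged before the fit, 168 were up and 16 down. The ratio was above 0 on all 3 arrays in 195 of the 198 and below 0 on all 3 in 17 of the 17. The counts depended on the processing: there were 815 up and 5 down after the spike-in shift, which moved the median of all contigs in A to 1.35, 259 up and 110 down with the scanner software's processed signals, and 49 up and 10 down without moderation of the variance. Leaving out 1 replicate gave 154 up without A, 377 without B and 238 without C. These P values are unadjusted: after Benjamini-Hochberg adjustment over all probes 0 contigs passed 0.05 in limma, where the lowest adjusted p was 0.209, against 2187 contigs at an unadjusted P under 0.05 (1134 higher and 1053 lower), and the unmoderated statistic also gave 0. Among all contigs, 21.7% were above 0 on every array, and 12 contigs (0.114%) were above 1 on every array, all of them among the 198. Those 12 were 3 esterases, 3 P450s, a sucrase, paramyosin, a poly(A)-binding protein, an FGF receptor (contig 6186, not well above background in water and at least 2.28-fold higher) and 2 unknown proteins.

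**Figure D1:**
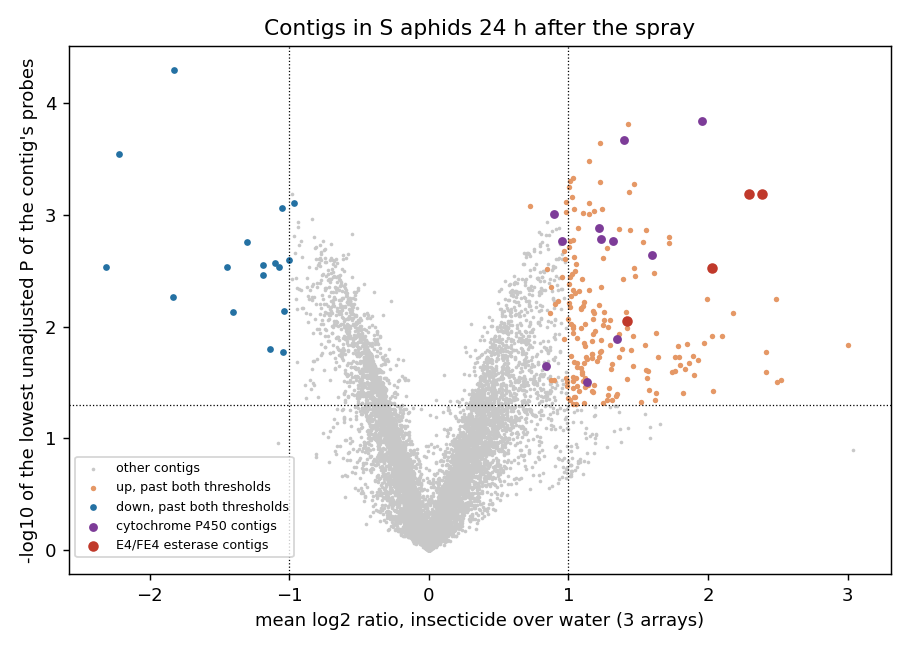
Each point is 1 contig in S, with the mean log2 ratio of insecticide over water on the 3 arrays on the x axis and minus log10 of the lowest unadjusted limma P of its probes on the y axis; dotted lines mark the thresholds of 1 in size and 0.05. The 198 contigs up outnumber the 17 down, esterases and P450s are drawn larger, and the single grey point near 3 is contig 4550, whose replicates disagree in sign.

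Names below are the best-hit descriptions of the study's supplementary table of up-regulated contigs. Its S list holds 183 contigs, which the authors chose on these same 3 arrays, so that the counts of its members that pass are a description and no independent evidence. All 183 were measured, and 179 of them passed here. A further 19 contigs passed that the list does not hold. The gene groups below are drawn from this S list unless another list is named. Contigs with the same best hit, such as Hsp70 6029 and 8669 or cathepsin B 254 and 256, may come from a single gene. Counts of contigs are therefore not counts of genes or of independent members. In water-treated aphids 154 of the 198 were well above background on all 3 arrays and 8 on none. Among those described below, contigs 6679, 5140, 256, 3002, 5578, 7361, 10020, 3806, 5268, 7762, 1524 and 7425 were so on 2 arrays, and 15015 and 5108 on 1.

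Esterases gave some of the largest ratios shared by all 3 arrays. The 4 contigs described as E4, FE4 or esterase all passed, with a median log2 ratio of 2.16. The median over all contigs was 0.00, but these 4 were listed as up on the same arrays, so a higher median follows from the choice. For contig 720, carboxylesterase E4, the treated and water signals were 31571 and 5323 units on replicate A, 78627 and 6899 on B and 50164 and 10050 on C. The treated channel was the brighter on every array, in both dye orientations. Its normalized log2 ratios were 2.23, 3.01 and 1.65 in A, B and C, a mean of 2.30 ± 0.68 (SD, n = 3) or 4.91-fold, with an unadjusted P of 0.000648 and an adjusted p of 0.209 in limma. Contig 9215, FE4, read 2.16, 3.17 and 1.83, a mean of 2.39 ± 0.70 or 5.23-fold. Contig 3118, an esterase, read 1.67, 3.05 and 1.37, and contig 4586, which the study's tables describe as FE4 in one place and E4 in another, read 0.89, 2.34 and 1.03, with a mean of 1.42 ± 0.80. All 4 were highest in replicate B, and 3 of the 4 calls held without it, with contig 720 at 1.94. E4 and FE4 genes are close copies of each other, so the 4 contigs may have shared labelled RNA and are not 4 independent measurements. The primers of the study's RT-qPCR assay of contig 720, named for E4 and FE4 together, show which stretch of it was assayed, and are given with those of the P450 contig 497, the glutathione S-transferase contig 1196 and the reference gene GAPDH, contig 1056, all 5′ to 3′ and with no base marked:
E4 contig 720 forward: cctggaagtgcctgtttaggaa
E4 contig 720 reverse: cctgcggaattctcttgtggta
P450 contig 497 forward: tgttccagatgaggacaccgta
P450 contig 497 reverse: agttgtccgacaatggattcgc
GST contig 1196 forward: acttcaacgtcactgctatggg
GST contig 1196 reverse: caaatggcatggtaggcttga
GAPDH contig 1056 forward: tggctttcagagtaccagttgc
GAPDH contig 1056 reverse: cttcagcggcttccttgacttt

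GAPDH, a glycolytic enzyme used by the study as a reference, lay close to 0. Its log2 ratios were -0.04, -0.05 and 0.19, a mean of 0.03 ± 0.14 (SD, n = 3).

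Cytochrome P450s were the most numerous detoxification group, counted by contigs and not by genes. The study's text assigns contigs 497, 5173 and 749 together to a gene it writes as CYPCY6. Of 11 P450 contigs on the S list, which the authors chose as up on these arrays, 10 passed, with a median log2 ratio of 1.23. All 11 were above 0 on every array. Contig 497, whose best hit is described as CYP6AX1, gave 2265 against 343 units on replicate A, 3493 against 529 on B and 3322 against 408 on C, treated against water. Its log2 ratios of 1.89, 1.67 and 2.32 had a mean of 1.96 ± 0.33 (SD, n = 3), a 3.89-fold difference, with an unadjusted P of 0.000143, the lowest of the contigs that were up. The arrays agreed more closely for this contig than for the esterases, and leaving out 1 replicate gave 1.78 to 2.11. Contig 3798, also described as CYP6AX1, read 1.73, 1.16 and 1.30 (mean 1.40 ± 0.30), and contig 5173 of the same description read 1.15, 1.35 and 2.30 (mean 1.60 ± 0.61). Contig 1730, a cytochrome family polypeptide, read 2.33, 0.69 and 1.02. Means of the other 7 ran from 0.84 to 1.32, and 6957 at 0.95, not well above background in water on any array and in treated aphids on 1, was the 1 that did not pass. Contig 9095 was not well above background in water-treated aphids on any array, and a bound on its ratio set from the dimmest probes that were well above background put it at least 1.42-fold higher. P450 contigs 2519 and 1504 of the study's SR list did not pass, and each disagreed in sign between arrays. Contig 2519, assayed by RT-qPCR and assigned by the study to CYP4, read 1.77, -1.43 and 0.24. Contig 1504 read 2.88, -1.07 and 0.76. Of the 10 P450 calls, 8 held in each fit that left out 1 replicate.

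The conjugating enzymes and transporters had smaller ratios. Both glutathione S-transferases passed. Contig 1196 read 0.42, 0.66 and 1.10 (mean 0.73 ± 0.34, 1.65-fold, unadjusted P of 0.000831), and it passed through 1 of its 2 probes, the mean of both being under 1. Contig 4744 read 0.81, 1.07 and 1.34. It was well above background on 0 arrays in water and on 2 in treated aphids, and a bound of the same kind put it at least 1.33-fold higher. The glucosyl glucuronosyl transferase contig 8298 had ratios of 1.82, 1.29 and 0.45, but no fold is given, since it was well above background on 0 arrays in water and on 1 in treated aphids. Aldehyde dehydrogenase, contig 2450, which oxidises aldehydes to acids, read 2.06, 0.82 and 0.63. The 3 ABC transporters had a median of 1.13 and were highest in replicate A and lowest in B, with 1.95 to 2.29 in A, 0.26 to 0.38 in B and 0.97 to 1.06 in C, and contig 1560 among them was at least 1.73-fold higher. Without replicate A, 0 of the 3 ABC transporter calls held, contig 2450 was at 0.72 and contig 8298 at 0.87, both uncalled. Without replicate C, 0 of the 3 ABC transporters and 0 of the 2 glutathione S-transferases passed, with contig 1196 at 0.54 and contig 4744 at 0.94.

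**Figure D2:**
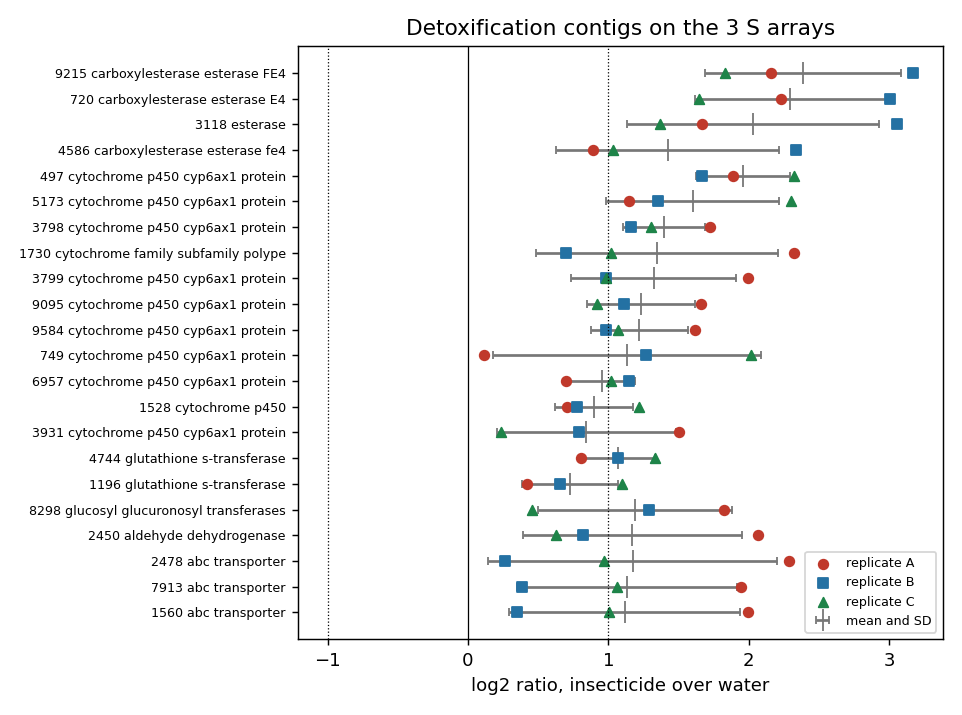
Log2 ratios of insecticide over water for the 22 detoxification contigs of the S list, with 1 symbol per S array and the mean and SD (n = 3) in grey. Dotted lines mark 1 in size. All symbols lie above 0, the 4 esterases are highest in replicate B, and the 3 ABC transporters are highest in replicate A. P450 contigs 1504 and 2519 of the SR list, below 0 in replicate B, are not drawn.

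Hsp70 proteins, the chaperones that bind unfolded proteins, passed in 5 of 5 contigs, with a median log2 ratio of 1.39. The largest, contig 6029, gave 14722 units in treated against 1273 in water-treated aphids on replicate A, 6535 against 1899 on B and 30548 against 2183 on C. Its log2 ratios were 3.14, 1.00 and 3.32, a mean of 2.48 ± 1.29 (SD, n = 3) or 5.60-fold. Contig 8669, of the same description, read 2.90, 0.77 and 2.87. These 2 contigs were low in B, whereas the cognate contigs 4539 and 8667, the constitutive kind of Hsp70, had more even ratios of 2.05, 1.26 and 0.87 and of 1.31, 1.17 and 0.84. Contig 15349 read 1.46, 1.04 and 0.60. Of the 5 calls 4 held without replicate A and 5 without B or without C.

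Cathepsin B contigs, cysteine peptidases that aphids hold in several copies, passed in 5 of 5, with a median of 1.03. All 5, taken from the S list, were highest in B and lowest in C. Contig 6891, described as cathepsin B on the SR list, did not pass and was highest in A. For contig 256 the signals were 625 against 80.0 units on replicate A, 24295 against 2657 on B and 8173 against 5036 on C, so the level of this transcript itself differed between arrays by far more than its ratio. Its log2 ratios were 1.62, 2.52 and 0.25, a mean of 1.46 ± 1.14. Contig 254 read 1.43, 1.86 and 0.47, and the others, 6594, 3002 and 3004, had means of 1.03, 0.97 and 0.91. These calls depended on replicate B, the only S array with treated RNA in Cy3. Without it 0 of 5 passed, with contig 256 at 0.94 and contig 254 at 0.95. Without replicate A 4 of the 5 held, and contig 6594 was uncalled at 0.98. Of 5 other peptidases 4 passed. The membrane alanyl aminopeptidase N contig 5268 was the most even of them at 1.33, 0.98 and 1.36 (mean 1.23 ± 0.21), and contig 3299, also an aminopeptidase N, read 1.44, 0.85 and 0.82. Signal peptide peptidase, contig 7762, and the protease m41 ftsH, contig 1733, had means of 1.03 and 0.93. Legumain, contig 2404, at 0.84, 1.68 and 0.24, did not pass and was ordered like the 5 cathepsin B contigs of the S list. Without replicate A 1 of the 4 calls held.

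Energy and amino acid metabolism made up the largest block of described contigs, and nearly all of it was highest in replicate A. So were 146 of the 198 contigs that were up. Amino acid metabolism and transport passed in 12 of 12 contigs, with a median of 1.87 overall and medians of 3.32 in A, 0.56 in B and 1.60 in C. Asparagine synthetase, which makes asparagine from aspartate, was represented by contigs 6679, 9752 and 5140. Contig 6679 gave 8812 against 163 units on replicate A, 2312 against 781 on B and 5260 against 756 on C. Its log2 ratios were 4.75, 0.57 and 2.25, a mean of 2.52 ± 2.10 (SD, n = 3), and among described contigs that passed it was the one standing farthest above the other arrays in A. Contig 9752 read 4.37, 0.55 and 2.32, and contig 5140 read 3.88, 0.25 and 1.97. Threonine dehydratase, contig 427, which deaminates threonine, read 4.18, 0.76 and 2.31 (mean 2.42 ± 1.71, 5.34-fold). The remaining 8 contigs of the group had means of 0.96 to 1.97. The most even was an excitatory amino acid transporter, contig 6024, with 1.02, 0.97 and 1.05. Without replicate C 4 of the 12 calls held, with contig 6679 at 2.66 and contig 427 at 2.47 on 2 arrays that disagreed, and without replicate A 9 held.

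Galactokinase 1, which phosphorylates galactose, was read by contigs 5068, 306 and 6657, with means of 1.77, 1.74 and 1.57. Ratios of contig 5068 were 3.30, 0.64 and 1.36. The uridylyltransferase of the next step of galactose use, contig 3714, read 1.87, 0.35 and 0.73, and all 4 contigs passed. Glycolysis and gluconeogenesis passed in 8 of 8, with a median of 1.15, and all 8 were highest in A. The hexokinase contig 1069 (hex-a) read 3.23, 0.70 and 1.62 (mean 1.85 ± 1.28). Phosphoenolpyruvate carboxykinase, contig 15015, the step committed to glucose synthesis, read 2.45, 0.69 and 0.94. Pyruvate kinase, contig 7810, which works in the opposite direction, read 2.12, 0.86 and 0.91. The bifunctional regulator 6-phosphofructo-2-kinase, contig 117, read 2.19, 0.80 and 0.66, and the other 4 had means of 0.88 to 1.09. Without replicate A 1 of the 8 glycolysis calls and 1 of the 4 galactose calls held, with contig 306 at 0.96 and contig 15015 at 0.81.

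At the entry to the Krebs cycle the pattern differed. Pyruvate dehydrogenase, contig 1856, read 0.98, 1.27 and 1.44, a mean of 1.23 ± 0.23 (SD, n = 3) with an unadjusted P of 0.000226, and replicate A was its lowest value. Aconitase, contig 5578, read 2.03, 0.84 and 1.55, and iron regulatory protein 1b, contig 7361, a relative of aconitase, read 1.76, 0.43 and 0.87. All 3 passed. Sugar hydrolases and transporters passed in 8 of 8, with a median of 1.14. Sucrase, contig 10020, which splits the main sugar of phloem sap, was above 1 on every array at 1.84, 1.20 and 1.37. A salivary maltase, contig 8379, read 1.75, 0.88 and 1.11. The alpha-glucosidase contig 3806, at 1.54, 1.94 and 0.20, was highest in B. Sugar transporter 1, contig 8316, read 1.88, 0.32 and 1.30. Lipid and glycogen contigs passed in 6 of 6, with a median of 1.05. They included a fatty acid binding protein, contig 2165, with 1.81, 0.33 and 1.56, a very long chain acyl-coenzyme A enzyme, contig 1524, with 2.02, 0.44 and 0.73, fatty acid synthase, contig 5108, with 1.75, 0.53 and 0.90, and glycogenin, contig 7425, the primer of glycogen synthesis, with 1.93, 0.30 and 0.87. Without replicate A 0 of the 6 lipid and glycogen calls, 3 of the 8 sugar calls and 2 of the 3 Krebs cycle calls held, with contig 1524 at 0.58 and contig 2165 at 0.95.

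Muscle contigs passed in 8 of 8, with a median of 1.21, and split in 2 ways. Troponin c, contig 1217, the calcium sensor of the thin filament, had the largest mean of all contigs that passed. Its signals were 2824 against 1194 units on replicate A, 17002 against 853 on B and 14775 against 329 on C. The log2 ratios of 0.69, 3.47 and 4.85 had a mean of 3.00 ± 2.12 (SD, n = 3), an 8.01-fold difference, and its unadjusted P was 0.0147. Flightin, contig 2627, a protein of flight muscle in Drosophila, read 0.07, 3.35 and 4.05 (mean 2.49 ± 2.12). Both were lowest in A and high in B and C, and flightin was close to the control in A. Actin, contig 9627, and the calcium pump of the sarcoplasmic reticulum, contig 6666, went the other way between arrays, with 2.93, 0.78 and 0.96 and with 1.92, 0.51 and 1.31. The other 4 had means of 0.85 to 1.18. The most even was paramyosin, contig 847, a protein of the thick filament, at 1.25, 1.01 and 1.19. Of the 8 calls 6 held without A, 5 without B and 6 without C. Without B contig 1217 read 2.77 and contig 2627 read 2.06, neither of them called, and contig 2627 was also not called without C at 1.71.

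Cuticle contigs of the S list passed in 3 of 3. The cuticular proteins 10027 and 4497 of the SR list did not pass, with means of 0.07 and -0.26. The cuticular protein contig 7126 read 2.90, 0.60 and 1.42, the endocuticle glycoprotein contig 3486 read 2.72, 0.66 and 0.95, and chitin deacetylase 1, contig 15353, read 1.74, 0.66 and 1.32. Without replicate A 1 of the 3 held. Contigs for protein synthesis passed in 6 of 6, with a median of 1.16. Poly(A)-binding protein, contig 7172, which binds the tails of messenger RNA, read 2.15, 1.17 and 1.28. Elongation factor 2, contig 287, read 2.28, 1.01 and 0.95, a DEAD box helicase, contig 4358, read 1.86, 0.82 and 0.84, and initiation factor 4, contig 1495, read 1.47, 0.87 and 1.11. Without replicate A 3 of the 6 held. Of 3 contigs of a densovirus of this aphid, the 2 on the S list passed. The third, contig 3321, nonstructural protein ns-1, is on the SR list, read -0.0048, 1.97 and 0.40, and did not pass. The structural protein contig 3427 read 2.03, 2.74 and -0.09, and the nonstructural protein contig 3320 read 2.11, 1.92 and 0.35, so that both of these were near the control in C. Without replicate B 0 of the 2 passed, with contig 3427 at 0.97 and contig 3320 at 1.23. Without replicate A 1 of the 2 held, and contig 3427 was uncalled at 1.33. Among the described contigs of no group, 52 of 54 passed, with a median of 1.13, and 45 of the 54 were highest in A. Without replicate A 16 of these 52 calls held. Of 32 unknown proteins 32 passed, of which 14 held when replicate A was left out, 30 when B was and 21 when C was. Contig 9015 was the most even of those named here at 1.31, 1.57 and 1.42 (mean 1.43 ± 0.13, unadjusted P of 0.000154).

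**Figure D3:**
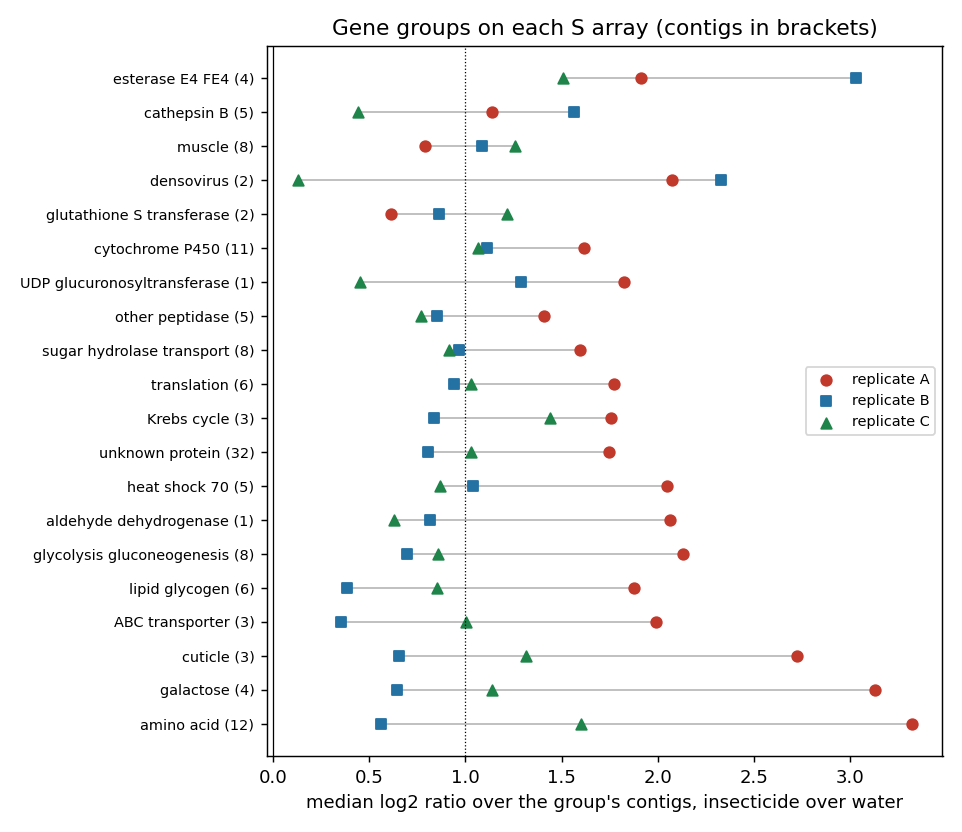
Median log2 ratio of insecticide over water over the contigs of each gene group on each S array, with the number of contigs in brackets; a grey line joins the 3 arrays, and groups are ordered by replicate B minus replicate A. Amino acid and galactose contigs had medians of 3.32 and 3.13 in A against 0.56 and 0.64 in B, whereas esterases stood at 3.03 in B, and the densovirus contigs at 2.33 in B and 0.13 in C.

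The 3 replicates thus did not rank the gene groups alike. Of the 198 contigs that were up, 146 had their highest ratio in A, 24 in B and 28 in C, and 117 had their lowest in B. Their median log2 ratio was 1.90 in A, 0.74 in B and 1.00 in C, and the median SD over the 3 arrays was 0.78 against 0.25 over all contigs. Counting single arrays, 911 contigs were above 1 in A, 121 in B and 365 in C, and 425, 51 and 32 were below -1. Among contigs of the S list, esterase and cathepsin B contigs were highest in B in 9 of 9. Replicate B was the only S array with treated RNA in Cy3, so for B replicate and dye cannot be told apart. Amino acid, galactose, glycolysis and lipid contigs were highest in A in 28 of 30, and both glutathione S-transferases were highest in C. Of the 198, 46 passed whichever replicate was left out.

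**Figure D4:**
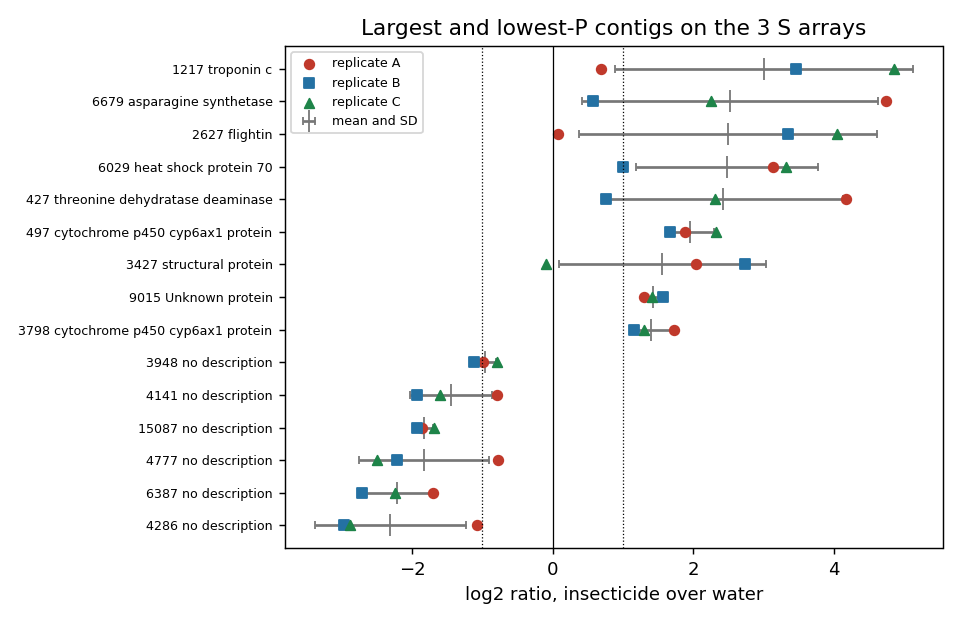
Log2 ratios of insecticide over water on each S array for the contigs of the largest means, of the lowest unadjusted P in each direction, and standing farthest above the other arrays, with the mean and SD (n = 3) in grey. Troponin c spans 0.69 to 4.85 and asparagine synthetase 6679 spans 0.57 to 4.75, whereas the P450 contig 497 spans 1.67 to 2.32 and contig 15087 spans -1.93 to -1.69.

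The 17 contigs that were down had 0 descriptions in the tables used here, so they are given by their numbers. Contig 15087 had the lowest P of all contigs. Its signals were 535 units in treated against 1323 in water-treated aphids on replicate A, 364 against 767 on B and 303 against 672 on C. The log2 ratios of -1.86, -1.93 and -1.69 had a mean of -1.82 ± 0.13 (SD, n = 3), 3.54-fold lower, with an unadjusted P of 5.03e-05 and an adjusted p of 0.209 in limma. Contig 6387 read -1.71, -2.71 and -2.24 (mean -2.22 ± 0.50, 4.65-fold lower). Contig 4286 had the largest decrease, with -1.07, -2.97 and -2.88 (mean -2.31 ± 1.07, 4.96-fold lower). Contigs 4777 and 4141 read -0.78, -2.22 and -2.50 and -0.80, -1.93 and -1.61, and contig 3948 read -0.99, -1.12 and -0.80. Contigs 4286, 4777 and 4141 were least reduced in A. In treated aphids contigs 6387 and 4777 were well above background on 1 array each. Without replicate A 10 of the 17 calls held, and without B or without C 15. The other 11 had means down to -1.40, all over 1 in size, and contig 138 among them was not well above background in treated aphids on any array. Contigs below -1 on all arrays numbered 3: 15087, 6387 and 4286.

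Without replicate A, the array with the conflicting label, 33 contigs passed an adjusted p of 0.05, 24 higher and 9 lower, and 19 of them were among the 215 called with all arrays. In 14 of the 33 the ratio on A had the opposite sign. Contig 4550, with no description, read -1.89, 5.28 and 5.73, the largest such disagreement among the 33, and did not pass with all 3 arrays. Described contigs of the 33 included flightin, troponin c, pyruvate dehydrogenase and a secreted salivary peptide, contig 3597, with 0.53, 2.54 and 3.24. Esterases numbered 0 of the 33. The lowest adjusted p in this fit of 2 arrays was 0.00727.

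The contigs that the study's table lists for the other genotypes were chosen on other arrays. Of 17 listed for SR, 6 passed in S (35.3% against the 1.89% of all contigs), and these 6 are also on the S list: Hsp70 6029 and 8669, cathepsin B 256 and 3002, and the unknown proteins 8424 and 3421. Contig 3421 read 2.18, 1.95 and 1.05, and contig 8424 read 2.75, 0.54 and 2.79. The other 11 included the P450 contig 1504, with 2.88, -1.07 and 0.76, the cathepsin B contig 6891, with 0.90, 0.83 and 0.58, and the cuticular proteins 10027 and 4497, with means of 0.07 and -0.26. Of 7 listed for MR, 0 passed in S, where their means lay between 0.48 and 0.92. The G protein beta subunit contig 1180 was the highest, with 0.92, 0.54 and 1.31 and an unadjusted P of 0.00426. Contig 6961, whose best hit is a histone h3 methyltransferase, read 0.59, 0.63 and 1.00, and contig 6351, the yellow protein, read -0.08, 0.55 and 0.97.

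The 198 contigs were chosen for high ratios on the S arrays, so lower values on other arrays follow in part from the choice itself, and nothing is read from the order of the genotypes. Over the 198, the median log2 ratio was 0.28 in SR and -0.17 in MR. In SR 84 of them were above 0 in both replicates and 9 below 0 in both, where 21.8% and 22.4% of all contigs were. In MR 6 were above 0 in both and 39 below, where 11.9% and 11.3% of all contigs were. Of the 74 contigs that passed and were named by the rule, 14 had every S replicate on one side of 0 and both MR replicates on the other. Against SR this held for 2. Over all contigs it held for 480 (4.58%) against MR and 760 (7.25%) against SR. Only the 2277 contigs above 0 and the 2752 below 0 on all 3 S arrays could qualify, whereas the 74 were chosen for a change in S. The shares are thus no like base, and no excess is read from them. The difference itself, tested in limma in 1 fit of the 7 replicates, passed an adjusted p of 0.05 for 0 contigs against SR (lowest 0.972) and for 0 against MR (lowest 0.0601), with 419 and 453 contigs at an unadjusted P under 0.05. The esterase contig 720 read -0.17 and 0.47 in SR and -1.68 and 1.21 in MR. Its ratio in S was 2.14 above SR, with a 95% interval of 0.16 to 4.12, and 2.53 above MR, with an interval of 0.55 to 4.51. The P450 contig 497 was 1.72 above SR (0.52 to 2.92) and 1.66 above MR (0.46 to 2.86). These are intervals for single contigs, not adjusted for the number tested, and they reuse the S ratios for which many of the contigs, 497 and 15087 among them, were chosen, so they are given as a description. They also include S replicate A, whose genotype label reads SR. Without that replicate the adjusted test again passed 0 contigs against SR and 0 against MR. Cathepsin B contig 256 differed from MR by 4.86 (2.78 to 6.95), since it was at -4.60 and -2.20 there, but from SR by 0.27 (-1.82 to 2.36). Contig 15087, down in S, was at 0.20 and 0.15 in SR, a difference of -1.998 (-2.87 to -1.13). With 2 replicates in SR and in MR, and MR replicates of opposite sign for most esterase, Hsp70 and P450 contigs shown, these differences could not be set apart after adjustment.

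**Figure D5:**
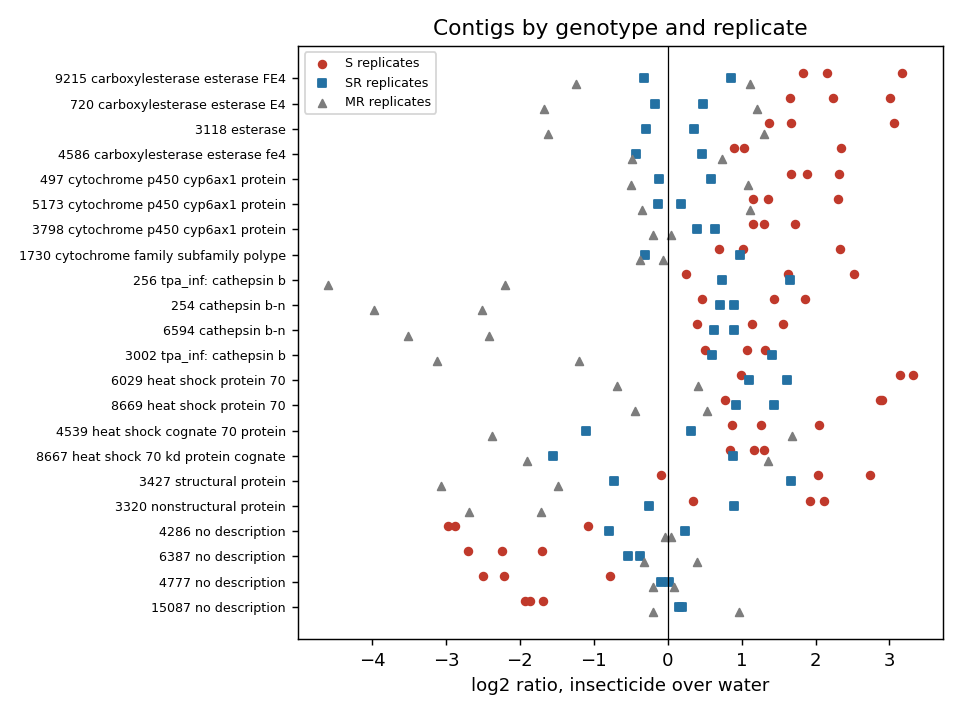
Log2 ratio of insecticide over water in each replicate of S (3), SR (2) and MR (2) for contigs of 5 gene groups and for the 4 largest decreases in S. The S replicates of E4 contig 720 lie between 1.65 and 3.01 and those of contig 15087 between -1.93 and -1.69, outside the values of both other genotypes, whereas the cathepsin B values of S and SR overlap and those of MR are below 0.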

How the data were processed

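The authors deposited, for each two-colour Agilent array, the scanner output; the median pixel intensity of each spot and of its surrounding background, both linear and not normalized, were used. The deposited processed intensities, corrected for background and dye by the software, served as an alternative. The deposited result tables of the authors' own comparisons (fold changes, p-values) were not used. All arrays lay on 1 slide and were scanned together.

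Background was corrected by normexp (offset 50), arrays were normalized by loess with control spots at weight 0, outlier spots were dropped, and log2 ratios were oriented as insecticide over water by the labelled dyes. lmFit and eBayes of limma 3.58.1 (R 4.3.3) gave the models, with Benjamini-Hochberg adjustment over 14628 probes, and the steps were tested on simulated data. A contig's ratio is the mean of its probes. Signals in units are background-subtracted but not normalized. Bounds on folds used each channel after loess and Aquantile normalization, averaged over arrays. They rest on the dimmest spot that was well above background and make no allowance for the spread between arrays. Figures were drawn with matplotlib 3.10.9 (Python 3.11.15).

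Contigs named were the 5 largest increases and decreases, the 3 lowest P in each direction, the members of the gene groups (the 4 largest where a group had over 5), the RT-qPCR contigs, those listed for SR and MR, and, for each array, the one farthest above the other arrays. Contigs 4550, 847, 6024, 3597, 9095, 138, 6186, 6957, 448 and 15 were added after their values were seen. The groups and lists were chosen with earlier results of these data known. Alternatives were other background corrections, normalizations, filters and fits, a dye term, and leaving out each replicate. No label says what separates the biological replicates, so P values measure the spread between these samples. Sequences of contigs and probes were not used here, and the number of arrays limits the precision.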

Additional observations from a re-analysis of the deposited data

Results flagged for a closer look

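Of 74 contigs that passed and were named by the rule, most of them chosen because they were up in S, 14 had all 3 S replicates on one side of 0 and both MR replicates on the other. Over all contigs this held for 4.58%. That share counts contigs of mixed sign in S, which could not qualify, so it is no like base for the 14. The adjusted test between S and MR passed none of the 14. Further contigs outside that set had the same pattern, among them 9095 (P450), 2404 (legumain), 6891 (cathepsin B) and the unknown protein 448. Contig 448 read 0.75, 2.00 and 1.02 in S and -3.07 and -3.62 in MR, with S minus MR at 4.60. Its adjusted p in limma, 0.0601, was equal to the lowest against MR. Of all 198 contigs up in S, 39 were below 0 in both MR replicates, where 11.3% of all contigs were. The differences on the log2 scale, S minus MR, were 4.86, 4.50, 3.996, 3.68 and 3.13 for the cathepsin B contigs 256, 254, 6594, 3004 and 3002. They were 3.66 for the densovirus nonstructural protein 3320, 3.91 for alpha-glucosidase 3806, and 3.16 and 1.74 for the unknown proteins 3421 and 9015. They were 1.62 and 2.10 for the glutathione S-transferases 1196 and 4744, 1.96 for the glucosyl glucuronosyl transferase 8298, 1.57 for the P450 contig 1730 and 1.73 for the fatty acid binding protein 2165. In 2 contigs without a description, 15087 and 3948, the S replicates were below 0 and both SR replicates above it, with S minus SR at -1.998 and -1.52. A split between S and SR in either direction was seen in 7.25% of all contigs, a share with the same unlike base.

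Contig 15, described as alcohol iron 1, was also printed on 20 control spots outside the tested probes. On these it read 1.80, 0.41 and 0.64 in S, a mean of 0.95 ± 0.74 (SD, n = 3), whereas the 5 other contigs printed as controls had means of -0.14 to 0.02.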

How the results depend on the processing

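The number of contigs down moved most with the processing: it was 67 with plain background subtraction, 110 with the scanner software's processed signals, 9 with median centring in place of loess, 11 with probes well above background on all arrays, and 10 with the unmoderated statistic. The number up was 72 with an intensity trend and robust eBayes and 49 with the unmoderated statistic (the methods' thresholds, without moderation), and all 72 and all 49 were among the 198. The share up was 79.1% with plain subtraction, 70.2% with processed signals and 80.9% with the trend, against 92.1%. Leaving out 1 replicate gave 154 to 377 contigs up, 27 to 46 down and 0 to 33 at an adjusted p under 0.05, the 33 being without A and the 377 without B. Of the 198, 84 passed without A, 172 without B and 136 without C. An added shift of each array to a common spike-in ratio, chosen after seeing the spike-ins, raised the median of all contigs in A to 1.35 and gave 815 up, 5 down and 43 at an adjusted p under 0.05. All 198 were among the 815. The other alternatives gave totals of 142 to 259 contigs up. Of the 198, 183 were among the 253 up with plain subtraction, 173 among the 259 with processed signals and 179 among the 247 with median centring. The dye term gave 142 up and 18 down, of which 129 and 15 were also called without it. Between S and MR, taking the 3 MR arrays as separate replicates gave 35 contigs at an adjusted p under 0.05. The labels do not say whether a letter marks a shared round of spraying, so letters were not taken as pairs. Letter A always had treated RNA in Cy5 and letter B in Cy3, so a shared letter and a shared dye cannot be told apart. Deviations of same-lettered replicates correlated at 0.50 and 0.43 between S and SR but at -0.37 and 0.03 between S and MR. The deviations of A and B in SR mirror each other, as do those in MR, so the correlations of a genotype are not separate evidence. With the letter as a replicate block, which also takes up dye, 0 contigs differed in limma between S and SR and 0 between S and MR (lowest adjusted p 0.998 and 0.160). The cause of these shifts was not tested. Of 49 contigs followed through 16 alternatives, 10 kept their call under every one that measured them: P450 3798 and 5173, sucrase 10020, pyruvate dehydrogenase 1856, aminopeptidase N 5268, poly(A)-binding protein 7172, the unknown proteins 9015 and 3421, and the decreases 15087 and 6387. The calls of 27 were lost under the trend with robust eBayes and of 28 under the unmoderated statistic, and 0 reversed.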
